A study of Mus musculus with 6 samples.

Results

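Some cytosines that were almost fully methylated in mouse round spermatids also had a high mean methylation level over haploid embryonic stem cell lines that carry a paternal genome. They are called retained cytosines here. They were selected on measured levels: on chromosomes 1 to 19, a cytosine had at least 10 reads in all 6 libraries, a level of at least 90% in round spermatids and an unweighted mean of at least 50% over the 5 lines. Of 227992 cytosines measured in all 6 libraries, 45296 reached 90% in round spermatids, and 2441 of those (5.39%) were retained. The level in round spermatids and the mean of the lines therefore describe the choice and are not findings.

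Methylation was read with RRBS (reduced representation bisulfite sequencing), in which DNA is cut with MspI at CCGG and unmethylated cytosines are converted before sequencing. The lines were androgenetic haploid embryonic stem cells (AG-haESCs), derived from androgenetic blastocysts, with 2 wild-type (WT) and 3 double knockout (DKO) lines, and all 6 libraries carry the strain label C57BL/6. The DKO titles name deletions of an H19 DMR and an IG-DMR, methylated elements that govern imprinting of H19 with Igf2 and of Dlk1 with Meg3. WT replicate 1 (OG3) was at passage 31 and WT replicate 2 (AGH-2) at passage 18, and DKO replicates 1 (AGH-4), 2 (OG3) and 3 (AGH-2) were at passages 32, 31 and 29. Culture was on feeders, in ES cell medium to which 2i was added, inhibitors that keep mouse ES cells undifferentiated. Round spermatids, the haploid germ cells formed by meiosis in the testis, gave 1 library without replicate. WT replicate 1 shares the line name OG3 with DKO replicate 2, and WT replicate 2 shares AGH-2 with DKO replicate 3, so lines with one name may have a common source. Genotype, culture history and library cannot be told apart within a single line.

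Methylation of cytosines in CpG pairs is laid down densely in the male germ line and is largely removed from the paternal genome after fertilisation. Imprinting control regions and certain retroelements, among them intracisternal A particles (IAPs), are known to escape this removal. ES cells cultured in 2i are known to have low methylation. No repeat annotation was used, so overlap with retroelements was not analysed here.

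The sequences of 3 promoter windows that hold a retained cytosine are shown, to place it among its neighbours. Each window, taken from RefSeq (GRCm38.p6), runs from 250 bases before to 50 after the start. Cytosines measured in all 6 libraries stand in capitals with their CpG partner. The Grpel1 window is chr5:36464935-36465234 on the plus strand, the 2310047D07Rik window chr5:149231058-149231357 on the plus strand and the Lcat window chr8:105943353-105943652 on the minus strand.
Grpel1: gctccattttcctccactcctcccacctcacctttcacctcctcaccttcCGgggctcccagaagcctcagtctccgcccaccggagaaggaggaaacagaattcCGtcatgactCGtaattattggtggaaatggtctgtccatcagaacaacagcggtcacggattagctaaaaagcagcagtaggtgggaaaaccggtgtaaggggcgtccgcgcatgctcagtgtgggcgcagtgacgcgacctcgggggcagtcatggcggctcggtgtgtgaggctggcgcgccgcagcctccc
2310047D07Rik: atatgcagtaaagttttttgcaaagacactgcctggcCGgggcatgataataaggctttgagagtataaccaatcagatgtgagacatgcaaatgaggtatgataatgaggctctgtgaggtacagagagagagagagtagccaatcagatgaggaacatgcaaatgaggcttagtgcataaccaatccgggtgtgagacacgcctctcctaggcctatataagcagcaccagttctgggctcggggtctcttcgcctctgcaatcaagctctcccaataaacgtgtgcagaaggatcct
Lcat: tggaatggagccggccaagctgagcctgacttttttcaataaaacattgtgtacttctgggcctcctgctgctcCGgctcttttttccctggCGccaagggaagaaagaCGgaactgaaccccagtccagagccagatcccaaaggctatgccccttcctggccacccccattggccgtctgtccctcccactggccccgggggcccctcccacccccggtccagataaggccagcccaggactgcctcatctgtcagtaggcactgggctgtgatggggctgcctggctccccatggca

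The Grpel1 window held 1 retained and 2 unmethylated cytosines. Grpel1 encodes a nucleotide exchange factor of the mitochondrial Hsp70 chaperone, and the window of the lncRNA gene 2210406O10Rik on the other strand overlaps it and holds the same cytosines. The retained cytosine at position 36464985 is base 51 of the printed Grpel1 window, 200 bp before the Grpel1 start. Its level was 95% and 100% in WT replicates 1 and 2, 100% in each DKO line and 97.2% in round spermatids, on 20, 23, 166, 178, 624 and 36 reads. The other capitals, at bases 106 and 116, were at 0% in all 6 libraries, on 305 to 1790 reads. Cytosines at 95% or more and cytosines at 0% thus stood within 1 promoter window in every library.

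The 2310047D07Rik window and the Lcat window had retained cytosines with less even levels. In 2310047D07Rik, base 38 reached 76.7% and 59.8% in the WT lines, 18.5%, 70.8% and 60.9% in the DKO lines and 100% in round spermatids. Lcat encodes the plasma enzyme that esterifies cholesterol on lipoproteins. Its base 75 reached 100% and 24.6% in the WT lines, against 23.0%, 63.9% and 52.9% in the DKO lines. The neighbours at bases 93 and 110 were also at 100% in round spermatids, but their means over the lines were 41.5% and 38.3%, below the limit of 50%. WT and DKO lines overlapped at both genes.

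The retained cytosine was inside CCGG in all 3 of these windows. Over all promoter windows, 116 of 269 cytosines at 90% or more in round spermatids (43.1%) and 3822 of 33500 measured cytosines (11.4%) were inside CCGG. CCGG, which reads the same on both strands, occurred in 53.5% of all 31396 promoter windows and in 99.97% of the 5891 with a measured cytosine. TGCCGC, the core of the sequence bound by the imprint-protecting factor ZFP57, was searched on both strands. It occurred in 11.6% of all windows and in none of those printed. Of the 166 windows with a cytosine at 90% or more in round spermatids, 2.41% held it. With 3 retained cytosines, these shares are a description. Every position that could be read in a promoter window, 113912 of 113912, was the cytosine of a CpG. Of 919 miRNA hairpins of RefSeq, 0 held a retained cytosine.

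The level of the retained cytosines varied between lines. Their mean level was 68.7% in WT replicate 1 and 50.4% in WT replicate 2. It was 58.8% in DKO replicate 1, 65.3% in DKO replicate 2 and 58.6% in DKO replicate 3. Round spermatids had 99.5%. Over the 5 lines this is 60.4% ± 7.04 (SD, n = 5). The same lines averaged 20.1% ± 5.32 (SD, n = 5) over all cytosines at 90% or more in round spermatids, with WT replicate 1 highest and WT replicate 2 lowest in both sets. The median depth of the retained cytosines was between 187 and 224 reads in the lines and 155 in round spermatids. The plot of levels by library shows that the retained cytosines of a single line did not gather around its mean.

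**Figure D1:**
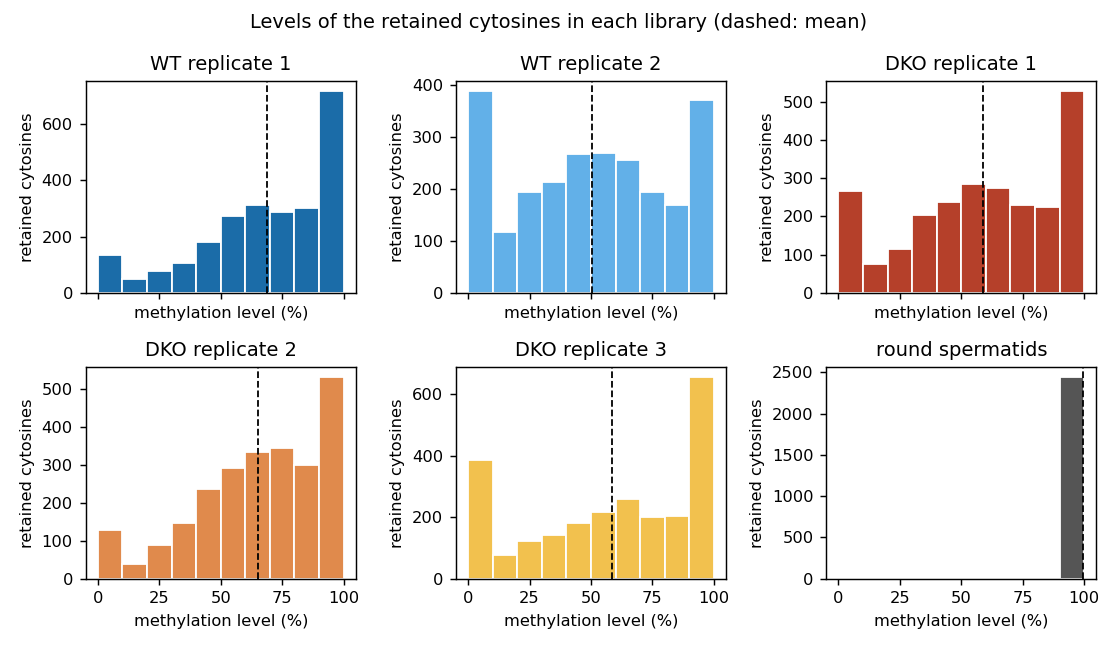
Number of retained cytosines (y axis, own scale in each panel) by methylation level in 10-point steps (x axis, %), for the 5 lines and round spermatids. Dashed lines mark the mean of each library; WT replicate 1 had 718 retained cytosines at 90% or more, and WT replicate 2 had 391 at 10% or less.

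In WT replicate 1, 718 retained cytosines were at 90% or more and 136 at 10% or less. WT replicate 2 had 371 and 391 of these, DKO replicate 1 had 529 and 270, DKO replicate 2 had 530 and 130, and DKO replicate 3 had 655 and 387. A retained cytosine could thus be fully methylated in one line and unmethylated in another. In 461 of 2441 (18.9%), one line was at exactly 0% and another at exactly 100%, against 5.35% of all cytosines at 90% or more in round spermatids. At least 1 line was at 0% in 798 (32.7%), although the mean of the lines reached 50% by the rule. In the wider set this share was 79.1%. The limit on the mean bears on both shares, since it keeps out cytosines unmethylated in most lines.

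The median SD over the 5 lines was 32.4 points, and the median SD that read counting alone would give was 2.52 points. The counting value takes every read as a separate molecule and gives no error to a line with all or no reads methylated. It can therefore be too small, and the gap between the 2 values is not a measure of real differences between lines. The difference between the highest and the lowest line had a median of 78.7 points. Exactly 3 lines were at 50% or more in 1225 retained cytosines (50.2%), 4 lines in 711, 2 lines in 329 and 1 line in 8. All 5 lines were at 50% or more in 168 (6.88%, Wilson 95% interval 5.94% to 7.96%). The limit on the mean keeps out cytosines that are high in few lines, so these counts in part follow from the rule. The highest line was WT replicate 1 at 770 retained cytosines and DKO replicate 3 at 670, and the lowest line was most often WT replicate 2, at 758.

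The extremes of this spread were named by rule. The least varied cytosine, on chromosome 1 at 128853346 and 32563 bp from the snRNA gene Gm23056, was at 100% in all 6 libraries, on 58 to 220 reads. Inside Osbpl10, a gene of the oxysterol-binding protein family, the cytosine at 115152447 on chromosome 9 reached 100% and 99.6% in the WT lines. It was at 100%, 99.8% and 100% in the DKO lines. Near B3gnt5, a glycosyltransferase of glycolipid synthesis, the cytosine at 19749509 on chromosome 16 was between 98.8% and 100% in all lines. These cytosines were methylated to nearly the level of round spermatids in every line.

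Of the 2441, 9 were at 90% or more in every line. Besides the Grpel1, Gm23056, Osbpl10 and B3gnt5 cytosines they lay in Tldc2 (lowest line 97.6%), in the lncRNA gene Gm46246 (96.7%), 67298 bp from Gm46847 (94.2%), 11989 bp from Mir101c (92.2%) and at the end of Klk12 (91.7%), a kallikrein-related protease gene. The next in this order, 6072 bp outside Nos1ap, an adaptor of neuronal nitric oxide synthase, had its lowest line at 87.6%. At the other extreme, cytosines in Zswim6, Llgl2, Scfd2 and Tshr and one 20133 bp from Gm5821 were at 100% in 3 lines and at 0% in the other 2. The fully methylated lines were not the same throughout, although WT replicate 1 was among them at all 5. At Zswim6 they were WT replicate 1 and DKO replicates 2 and 3, while at Tshr, the thyrotropin receptor gene, and near Gm5821 they were both WT lines and DKO replicate 1.

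The number of cytosines falls steeply towards higher means, and the limit of 50% crosses this slope without a gap. Of the 45296 cytosines that reached 90% in round spermatids, 14492 averaged under 10% across the lines and 3050 between 40% and 50%. The numbers were 1484, 590, 252, 90 and 25 in the successive steps of 10 points from 50% to 100%. Just inside the limit stood cytosines in Atic (50%) and Map3k11 (50.01%) and one near Themis2 (50.02%). Just outside were cytosines in Ube3b, 1700026D11Rik and Wwox, at 49.995%, 49.992% and 49.986%. At the limit on round spermatids, cytosines near Skint11 and in Dcdc5 and Gm33413 lay between 90% and 90.11%, and the cytosines in Filip1, in Galntl6 and near Gm18714 were outside at 89.96%, 89.80% and 89.71%.

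A line that took no part in the choice was also more methylated at the chosen cytosines. Each line was left out in turn, cytosines were chosen by the same limits from the other 4 lines, and the level was read in the line left out. It was 50.3% in WT replicate 1 and 32.2% in WT replicate 2, and 39.3%, 49.6% and 35.2% in DKO replicates 1, 2 and 3. The cytosines not chosen had 25.6%, 12.7%, 16.1%, 23.0% and 16.03% in the same order. The chosen cytosines were higher in 5 of 5 lines, by 22.7 points ± 3.27 (SD, n = 5), between 19.2 and 26.7. DKO replicate 1, whose name is shared with no other line, had a difference of 23.2 points.

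The level in the line left out nevertheless stayed below that of the lines used to choose. The chosen cytosines averaged 61.1% over the 4 lines used and 41.3% ± 8.28 (SD, n = 5) in the line left out. Of the chosen cytosines, between 28.2% and 53.2% were at 50% or more in the line left out, against 7.11% to 19.7% of those not chosen. The level in the line left out rose over the whole range of the other 4 lines, from 10.9% ± 4.14 where their mean was under 10% to 37.4% ± 8.10 between 50% and 60%. It reached 64.6% ± 8.59 (SD, n = 5 for each) where their mean was at least 90%, a step with 31 to 50 cytosines. The plot of the line left out shows no jump at 50%.

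**Figure D2:**
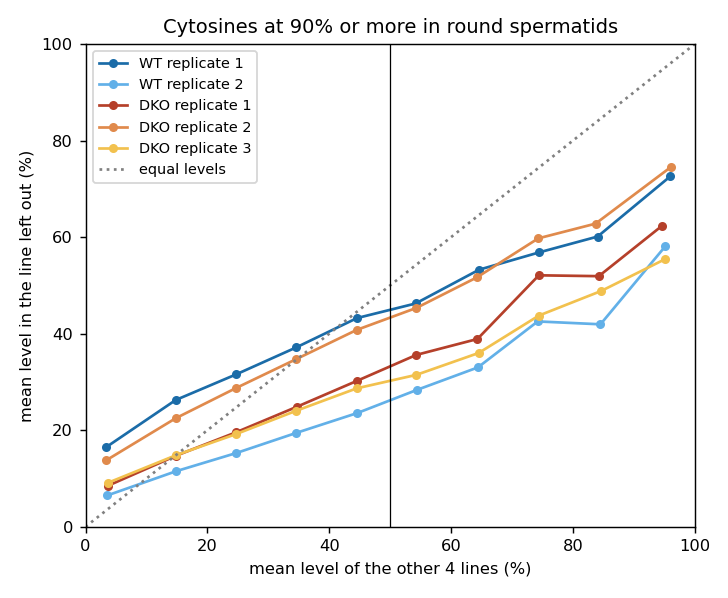
Mean level in the line left out (y axis, %) against the mean of the other 4 lines (x axis, %), for cytosines at 90% or more in round spermatids, in steps of 10 points, with 1 curve per line left out. The vertical line marks the limit of 50% and the dotted line equal levels; all 5 curves rise, and above 50% all lie below the dotted line.

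The opposite strand of the same CpG was read where it took no part in the choice. A position 1 bp away is the partner cytosine on the other strand, and partners with at least 10 reads in every library were left out, since the limits had been applied to them. Between 51 and 63 retained cytosines per line had another partner with at least 10 reads in that line. These partners averaged 38.9% ± 8.63, and the retained cytosines themselves 58.6% ± 9.53 (SD, n = 5 lines for both). Partners of the other cytosines at 90% or more in round spermatids averaged 20.1% ± 4.49 (SD, n = 5), close to the 18.99% of those cytosines. Partners of retained cytosines were higher in 5 of 5 lines, at 28.3% to 50.1% against 13.7% to 24.9%. The retained cytosine was selected for a high level in these lines and its partner was not, so nothing is read from the gap within a pair. The median difference within a pair was 41.8 to 55.5 points over the lines at retained cytosines, and 5.13 to 23.8 points at the others. In round spermatids it was 0.484 points, over 34 retained pairs.

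Cytosines near retained ones that failed the read minimum in some line were read in the same way. They had at least 10 reads and a level of 90% or more in round spermatids. In the lines they had at least 10 reads in only 1 to 4, and so took no part in the choice. Within 100 bp of a retained cytosine they averaged 33.4% ± 7.56 (SD, n = 5 lines), on 242 to 345 cytosines per line. Around the other cytosines at 90% or more in round spermatids they averaged 20.1% ± 5.62 (SD, n = 5). Cytosines this close can lie on the same reads and the same MspI fragment, so they are not independent of their neighbours.

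Neighbours of retained cytosines were retained more often than neighbours of the others, above all at 2 to 50 bp, where they can lie on the same reads. Of their neighbours at 90% or more in round spermatids, 39.8% were retained at 2 to 20 bp, 22.4% at 21 to 50 bp and 5.90% at 51 to 100 bp. The share was 10.7% beyond 100 and up to 200 bp, 18.7% up to 500 bp and 10.2% at 1 to 5 kb, and it reached 4.88% at 20 to 100 kb. Around the other cytosines it stayed between 3.72% and 4.72% at all distances beyond 1 bp. At 1 bp, the other strand of the same CpG, it was 17.4% around retained cytosines on 23 pairs and 7.01% around the others on 271 pairs. The excess was thus largest at 2 to 20 bp, smaller at 1 bp and still seen at 1 to 5 kb. RRBS measures fragments rather than continuous sequence, and the rise from 51 to 500 bp rests on 271, 896 and 278 neighbours per step.

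**Figure D3:**
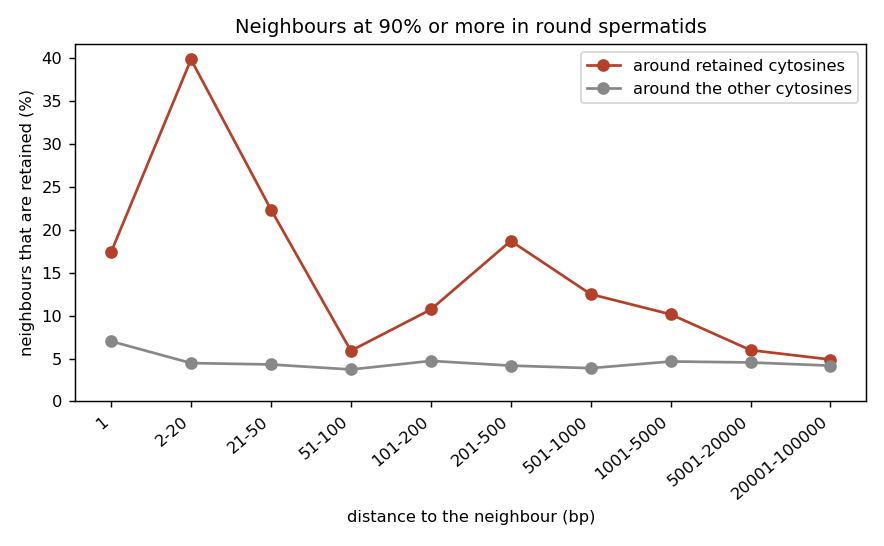
Share of neighbouring cytosines that were themselves retained (y axis, %) by distance (x axis, bp, unequal steps), among neighbours at 90% or more in round spermatids. Red is around retained cytosines and grey around the other cytosines at 90% or more in round spermatids; the red share is 39.8% at 2 to 20 bp and 4.88% beyond 20 kb.

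Most retained cytosines nevertheless had no other retained cytosine within 500 bp. Joined at up to 500 bp, the 2441 formed 1995 clusters, of which 1667 were single cytosines, 243 pairs and 85 groups of at least 3, the largest of 6. A second retained cytosine lay within 500 bp of 774 (31.7%). Where another cytosine at 90% or more in round spermatids was measured within 500 bp, 774 of 1884 (41.1%) had a retained one. The 85 groups held 288 cytosines over a median span of 34 bp and at most 357 bp. In 60 of the 85 every cytosine at 90% or more in round spermatids within the span was retained. A span runs from the first to the last retained cytosine, so this count in part follows from how the groups were formed. Averaged over its cytosines, a group was at 50% or more in all 5 lines in 17 of 85 (20%), and 39 of the 85 lay outside genes.

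Groups with most retained cytosines differed in how evenly the lines carried them. The 6 cytosines in Tldc2 (chr2:157089543-157089580), a gene of the TLDc-domain family, averaged 98.9% and 80.9% in the WT lines, against 71.0%, 78.0% and 99.8% in the DKO lines. The group mean was thus above 70% in every line, although single cytosines of the group were unmethylated or nearly so in single lines. The other group of 6, at chr1:11378326-11378682 and 35289 bp outside A830018L16Rik, averaged 94.7% and 68.8% in the WT lines, against 71.7%, 71.1% and 37.4% in the DKO lines. DKO replicate 3 stood lowest in that group. The plot of the groups with most cytosines gives the spread for each.

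**Figure D4:**
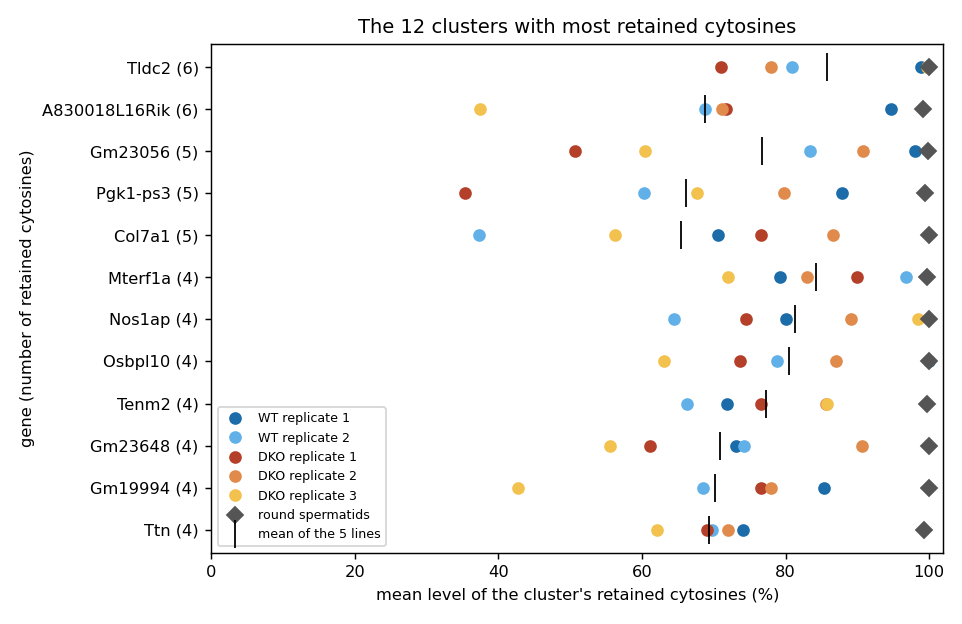
Mean level of the retained cytosines of a group (x axis, %) in each library, for the 12 groups with most retained cytosines (ties by the mean of the lines), named by the gene that holds them or the nearest gene, with the number of retained cytosines in brackets. Circles are lines, diamonds round spermatids and black bars the mean of the lines; the lines lie closest together at Ttn, from 62.1% to 74.1%, and round spermatids are above 99% throughout.

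By group means, the most even of these groups was in Ttn, the gene of the giant sarcomere protein titin (chr2:76944806-76944956). Its 4 retained cytosines averaged 74.1% and 69.8% in the WT lines, against 69.1%, 72.0% and 62.1% in the DKO lines, a SD of 4.54 points. Tenm2, which encodes a teneurin of synaptic adhesion, held 4 retained cytosines (chr11:36023813-36023853) at 71.9% and 66.3% in the WT and 76.6%, 85.7% and 85.8% in the DKO lines. The group 9536 bp from Mterf1a, which encodes a mitochondrial transcription termination factor, was at 79.2% and 96.8% in the WT and 89.9%, 83.1% and 72.0% in the DKO lines. In Tldc2, Tenm2, Ttn and Osbpl10 and near Mterf1a and Nos1ap the group mean stayed above 60% in every line. Groups near Nos1ap (81.3% over the lines), in Osbpl10 (80.5%) and near Gm23056 (76.7%), Gm23648 (70.9%) and Gm19994 (70.2%) had SDs of 13.1 to 20.2 points. The 5 cytosines near Pgk1-ps3 ranged from 35.3% in DKO replicate 1 to 87.8% in WT replicate 1. The 5 in Col7a1, the collagen of skin anchoring fibrils, ranged from 37.3% in WT replicate 2 to 86.6% in DKO replicate 2.

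The Osbpl10 group shows how much close neighbours with equal read counts can differ. Its cytosine at 115152447 was between 99.6% and 100% in all 5 lines. The cytosine at 115152432, read the same number of times in each line (387 to 671 reads), was at 100% in both WT lines. It was at 46.0%, 49.1% and 49.7% in DKO replicates 1, 2 and 3. WT and DKO lines did not overlap at that cytosine.

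The 168 cytosines at 50% or more in all 5 lines fell in 155 clusters, and 37 of them belonged to groups of at least 3. Their median mean level was 78.5% and their median SD over the lines 14.4 points. The lowest line had a median of 57.6%, and in 34 it was at 70% or more. Their median smallest depth over the libraries was 53 reads, close to 57 for all 2441. Outside genes lay 40.5% of the 168, against 36.5% of all retained cytosines.

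Retained cytosines were more often outside genes than the other cytosines that were methylated in round spermatids. By the RefSeq gene table (GRCm38.p6), 55.9% of the 2441 lay in gene bodies, 7.66% within 1 kb of either end of a gene and 36.5% outside genes (Wilson 95% interval 34.6% to 38.4%, counting error only). The other cytosines at 90% or more in round spermatids had 63.7%, 9.51% and 26.8%. All measured cytosines had 32.7%, 55.3% and 11.96%, since RRBS favours CpG-dense gene starts. Exons, introns and UTRs were not assigned, because the table gives only the extent of each gene.

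Put as shares retained, these were 4.76% of cytosines in gene bodies, 4.39% near gene ends and 7.19% outside genes. The share was 3.86% within 1 kb of the nearest gene start, 3.09% from 1 to 5 kb, 4.62% from 5 to 20 kb, 6.08% from 20 to 100 kb and 8.20% beyond 100 kb. Distances to a start leave out chromosome 18. The median distance of retained cytosines to a start was 30469 bp, against 19711 bp for the others. The plot by place shows both series.

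**Figure D5:**
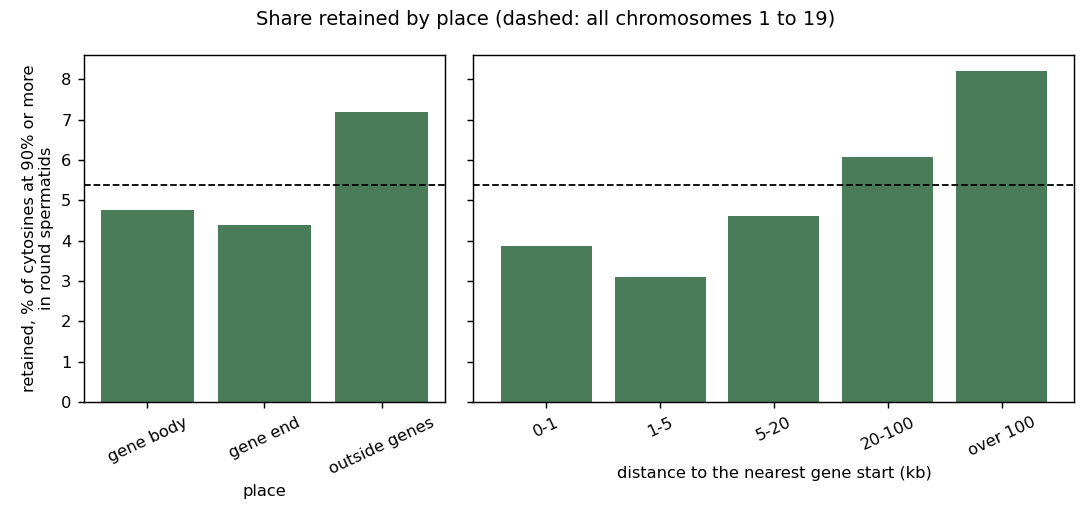
Share of cytosines at 90% or more in round spermatids that were retained (y axis, %) by place (left) and by distance to the nearest gene start (right, kb, chromosome 18 left out). The dashed line is the share over all places, 5.39%; the share outside genes is 7.19%, and beyond 100 kb from a start it is 8.20%.

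The share retained also moved with depth. It was 6.40% and 6.71% where the smallest depth over the libraries was 10 to 19 and 20 to 49 reads, then 5.59%, 5.19%, 3.66% and 2.61% from 50, 100, 200 and 500 reads on. The median SD over the lines of the retained cytosines fell over the same steps from 36.2 to 19.8 points. Outside genes the share was above that in gene bodies at each depth. It was 8.27% against 5.90% below 50 reads, 7.28% against 4.81% from 50 to under 200 and 4.97% against 2.89% from 200 reads. Over all cytosines at 90% or more in round spermatids, a set chosen without the lines, levels outside genes exceeded those in gene bodies by 1.25 points ± 0.268 (SD, n = 5), in 5 of 5 lines. The exact two-sided sign-flip permutation test gave p = 0.0625, the smallest that 5 lines allow.

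Between chromosomes the share retained ranged from 3.99% on chromosome 17 to 7.05% on chromosomes 6 and 13. By the number of measured cytosines nearby, the share was 4.82% for cytosines measured alone within 250 bp, 5.17% with 2 to 3, 6.28% with 4 to 6 and 5.28% with 7 or more.

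Near genes controlled by imprints of the paternal germ line, 2 of 13 cytosines at 90% or more in round spermatids were retained, against 5.39% overall. Both lie in Rtl1, a retrotransposon-derived imprinted gene of the Dlk1-Meg3 domain, within 1 kb of a gene end and at least 19271 bp from Meg3. They belong to the same cluster and can lie on the same reads, so they are not separate loci. The first, at 109591000 on chromosome 12, reached 97.1% and 46.4% in the WT lines, against 43.3%, 46.5% and 21.5% in the DKO lines. The second, 109591005, was at 99.6% and 65.8% in the WT and at 30.3%, 57.7% and 38.6% in the DKO lines. WT and DKO lines overlapped at the first and not at the second, and WT replicate 1 stood highest at both. This domain is the one whose IG-DMR is named as deleted in the DKO lines.

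Other retained cytosines lay within 50 kb of genes of this list. Of the pair 18663 and 18677 bp from Rasgrf1, a paternally expressed exchange factor, the cytosine at 90045642 on chromosome 9 was at 70.0% and 64.1% in the WT and at 86.1%, 48.1% and 0% in the DKO lines. DKO replicate 3 was at 0% at both cytosines of the pair. A cytosine in Mrpl23, 35511 bp from the imprinted lncRNA gene H19, was at 0% and 56.2% in the WT and at 100%, 100% and 16.8% in the DKO lines, on as few as 12 reads. WT and DKO lines overlapped at each of these 3 cytosines.

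Genes controlled by maternal germline imprints held 2 retained cytosines of 46 (4.35%). The one in Trappc9 was at 95.3% and 100% in the WT and at 0%, 77.1% and 0% in the DKO lines, and the one 16112 bp from Blcap and 19828 bp from Nnat averaged 53.7%. Near Aurkc, between 42784 and 47252 bp from Usp29 of the Peg3 domain, 5 retained cytosines had means of 52.2% to 65.7%. Another, 36923 bp from Trappc9, averaged 54.1%.

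Genes next to IAP elements that are variably methylated in C57BL/6 mice, a short list from general knowledge, held 3 retained cytosines of 45 (6.67%). The cytosine in Rab6b, a Golgi GTPase gene, was at 59.97% and 95.8% in the WT and at 55.2%, 45.1% and 100% in the DKO lines. In Sfi1, a centrosomal protein gene, the levels were 0% and 98.1% in the WT and 86.5%, 100% and 22.2% in the DKO lines. The cytosine 702 bp from Cdk5rap1 was at 24.5% and 47.0% in the WT and at 54.4%, 72.3% and 97.1% in the DKO lines, which did not overlap there. A cytosine in Cda, 29682 bp from Pink1, averaged 54.6%. The distance of any of these cytosines to an IAP element was not analysed here.

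Gene families were counted in the same way, against the 5.39% overall. Olfactory receptor genes, which encode odorant receptors in large clusters, had 22 of 202 (10.9%), of which 20 lay outside genes, in 18 clusters. Vomeronasal receptor genes had 15 of 141 (10.6%), of which 12 lay outside genes, in only 9 clusters for all 15. The mean of the lines over all cytosines counted to these families was 24.9% and 24.2%, against 20.1% over all cytosines at 90% or more in round spermatids. The share outside genes overall was 7.19%. Zinc finger genes had 32 of 560 (5.71%), solute carriers 35 of 746 (4.69%), collagens 12 of 266 (4.51%), keratins 3 of 36 (8.33%) and germline genes 1 of 27 (3.70%). Clustered protocadherins had 0 of 5 and Hox genes 0 of 1.

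Named members of these families again differed between lines. The cytosine 20515 bp from Olfr19 was at 74.8% and 88.0% in the WT and at 91.9%, 98.95% and 99.6% in the DKO lines, on at least 191 reads. That near Olfr135 was at 100% and 99.5% in the WT and at 69.7%, 81.2% and 66.8% in the DKO lines. WT and DKO lines did not overlap at either, and they differed in opposite directions. The cytosine near Olfr344 was at 100% in WT replicate 1 and at 16.2% in DKO replicate 3.

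At some of these family members 1 line was far below the other 4. Near the pseudogene Vmn1r-ps26, WT replicate 2 was at 0% on 575 reads and the other lines between 98.96% and 100%. In the hair keratin gene Krt82, WT replicate 2 was at 0% on 407 reads and the other 4 lines at 100%. Near Vmn2r80, DKO replicate 3 was at 0% on 182 reads and the others between 78.8% and 99.4%. In Col7a1, the cytosine at 108975380 was at 53.8% in WT replicate 2, on 13 reads, and between 86.8% and 95.8% in the others.

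The collagen and solute carrier cytosines with the highest means were otherwise spread. The cytosine in Col6a2 was at 55.2% and 64.9% in the WT and at 100%, 93.0% and 100% in the DKO lines, without overlap. In Col4a2, a basement membrane collagen, the levels were 90.2% and 45.6% in the WT and 57.5%, 98.9% and 100% in the DKO lines. In Slc29a3, a nucleoside transporter gene, the cytosine at 60716214 ranged from 34.4% in DKO replicate 3 to 99.2% in DKO replicate 2. The cytosine at 60711436, 636 bp outside the gene, was at 100% in WT replicate 1 and between 70.2% and 70.6% in the other 4 lines. Zfp462 held 2 of the 3 zinc finger cytosines with the highest means, at 77.9% and 73.7%, and Zfp111 the other, at 77.5%. The cytosine near Fkbp6, a germline gene of meiosis, averaged 52.6%.

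DKO and WT lines were then compared at the retained cytosines, which asks whether deletion of the 2 elements goes with a change of retention. The mean level was 59.6% ± 12.9 in the 2 WT lines (SD, n = 2). In the 3 DKO lines it was 60.9% ± 3.77 (SD, n = 3). The difference of 1.34 points was smaller than the spread between lines (exact permutation test, two-sided p = 1, the smallest possible being 0.1). The rule averages 2 WT and 3 DKO lines and so bears on this difference, and nothing is read from its sign. Over all cytosines at 90% or more in round spermatids, a set chosen without the lines, it was -0.741 points. At the retained cytosines the difference turned to -7.81 points without WT replicate 2 and to -0.836 points without DKO replicate 2. Without WT replicate 1 it was 10.5 points.

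No retained cytosine passed the test for DKO against WT. In edgeR's quasi-likelihood fit over 142691 cytosines, 0 of the 2440 retained cytosines tested were called higher and 0 lower at an adjusted p under 0.05, and 0% of all tested were called in either direction. The lowest Benjamini-Hochberg adjusted p among them was 0.951. At an unadjusted p under 0.05, edgeR counted 63 of 2440 (2.58%), 29 higher and 34 lower in the DKO lines. The share was 1.98% of all tested and 3.67% of those at 90% or more in round spermatids. On logit levels, limma called 0 (lowest adjusted p 0.272). It counted 152 (6.23%) at an unadjusted p under 0.05, against 3.72% of all tested. For limma the share among those at 90% or more in round spermatids was not counted, so nothing is read from this gap. One retained cytosine had no variation over the lines and was not tested. With lines this variable the test has little power, so 0 calls do not show that WT and DKO lines are alike.

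The 3 DKO lines were all above both WT lines at 250 retained cytosines (10.2%; 3.78% of all tested) and all below at 202 (8.28%; 5.43% of all tested). Among all tested cytosines at 90% or more in round spermatids, the shares were 5.93% above and 8.09% below. The rule bears on these counts: a cytosine methylated in the 3 DKO lines alone has a mean of 60% and is retained, while one methylated in the 2 WT lines alone has a mean of 40% and is not. Of the 10 ways to label 5 untied lines, 1 puts all 3 DKO lines above both WT lines and 1 puts them all below. Shares near 1 in 10 in each direction thus need no difference between WT and DKO lines. A cytosine at the same level in a WT and a DKO line cannot separate them, which can lower the shares of all tested. Nothing is read from the gap to all tested or from the split between the directions.

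Single cytosines without overlap nevertheless showed large differences. In Agap1, which encodes a regulator of Arf GTPases, the cytosine at 89485400 on chromosome 1 was at 0% and 0.0727% in the WT and at 100%, 70.0% and 100% in the DKO lines. The cytosine 44691 bp from D10Wsu102e was at 0% in both WT lines, against 100%, 89.0% and 93.9% in the DKO lines. The cytosine 61963 bp from Gm33752 was at 0% in both WT lines, against 100%, 88.3% and 100% in the DKO lines. These 3 had the lowest unadjusted p of those higher in DKO, and their adjusted p in edgeR was 0.951.

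In the other direction, the cytosine in Slc44a5, a choline transporter-like gene, was at 100% in both WT lines, against 48.5%, 57.3% and 18.1% in the DKO lines. In the immunoglobulin kappa locus Igk, the cytosine at 70280398 on chromosome 6 was at 100% and 98.2% in the WT and at 0%, 57.8% and 0.293% in the DKO lines. The Osbpl10 cytosine at 115152432, described with its group, was the third. Their edgeR adjusted p was also 0.951. These 6 differences came from at least 57 reads per line, and none held up against the spread between lines.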

How the data were processed

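Methylation was measured by RRBS in 6 libraries: 2 WT lines, 3 DKO lines and 1 library of round spermatids. Per the submitters' processing notes, Bismark 0.12.2 and the build mm10 were used. The sources used here do not give how reads were trimmed or whether duplicates were removed. The deposited files give, per cytosine, a count of methylated and a count of unmethylated reads and the level as a fraction. The files name no strand or sequence context. Levels were recomputed from the counts and are given as percentages. Total read counts on chromosomes 1 to 19 ranged from 192999313 to 250162134 in the lines and were 290051198 in round spermatids.

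The retained cytosines, gene lists and tests were chosen with earlier results of these data known. Genes came from RefSeq (GRCm38.p6, the assembly of mm10), and a cytosine was counted to the gene that holds it or the nearest one. Named were the 12 groups with most retained cytosines (the 7 of them with 4 cytosines taken from 21 by the highest mean of the lines), the 10 cytosines with the highest lowest line, the 5 with the largest and the 5 with the smallest SD, the 3 on each side of each limit and the 3 in each direction with the lowest unadjusted p between DKO and WT among those without overlap. Also named were those within 50 kb of imprinted, paternal germline DMR or IAP neighbour genes, and up to 3 per other list, of which 1 is not reported here. Observations chosen after seeing values are the promoter cytosines and the comparison of Osbpl10 neighbours.

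DKO and WT lines were compared with edgeR 4.0.16 (quasi-likelihood, common dispersion, a term for each library, Benjamini-Hochberg over all cytosines tested) and limma 3.58.1 in R 4.3.3. The fit was checked on simulated data: raised cytosines were recovered with a small spread between lines and none with a wider one, and the spread measured here, at levels above 1%, was wider than both. Single values were compared by exact permutation tests in scipy 1.17.1. The labels do not say that the lines come from separate embryos, so p-values measure the spread between these samples. Reads carry no molecular identifier and PCR copies cannot be told from molecules, so intervals cover counting error only. Alternatives changed the read minimum, both limits, the average, the distances, the test and the lines used. Cytosines outside chromosomes 1 to 19 were left out.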

Additional observations from a re-analysis of the deposited data

Results flagged for a closer look

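In 10 of 68 values tested over the 5 lines, 1 line stood far from the other 4 (its gap to the nearest line, over the range, was above Dixon's 95% critical value). The WT and DKO groups have 2 and 3 lines, so the 5 lines were taken as 1 set. For normally distributed values, chance sets about 1 in 20 apart. Many of the 68 were levels of cytosines named for a high mean or a high lowest line, and no level exceeds 100%. The rate of 1 in 20 does not apply to them, and nothing is read from the number flagged. Among the values flagged, WT replicate 1 stood apart with a difference of 1.72 points between cytosines outside genes and in gene bodies. It also stood apart with 95% at the Grpel1 and 2210406O10Rik cytosine, with 91.7% at Klk12 and with 100% at Slc29a3 (60711436). WT replicate 2 stood apart with 94.2% near Gm46847, with 0% near Vmn1r-ps26 and in Krt82, and with 53.8% in Col7a1. DKO replicate 3 stood apart with 0% near Vmn2r80. At Klk12 the low line had 12 reads, at Col7a1 it had 13 and at Grpel1 it had 20. The causes were not tested.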

How the results depend on the processing

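Recomputed under the alternatives, 11 values moved and 2 turned. The other 48 kept their direction and their side of the threshold or, without a test, stayed within their spread or counting interval or near the reported count. The number of retained cytosines was 1311 at a minimum of 50 reads, 5491 with a mean of at least 40% and 963 with at least 60%. It was 2293 to 3439 when each line was left out of the mean in turn. The share at 50% or more in all lines was then 10.2% to 11.6%, with 4 lines to satisfy in place of 5. The share with another retained cytosine within 500 bp was 28.5% at 50 reads, where fewer cytosines are measured. With gene ends reaching 2 kb, 51.2% lay in gene bodies and 13.8% near gene ends, as the wider ends take from the bodies. The difference between DKO and WT lines turned to -7.81 points without WT replicate 2 and to -0.836 without DKO replicate 2, and ranged from -7.81 to 10.5 when each line was left out. At a minimum of 50 reads it was 0.401 points. With the lines paired by shared name as a replicate block it was 2.37 points, from 8.20 in the AGH-2 pair and -3.46 in the OG3 pair; the names alone do not show a common source. The count of retained cytosines called between DKO and WT was 0 in all 11 alternatives, the replicate block included. Depth limits single values most where the smallest depth is under 20 reads, as at 445 of the 2441.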
